A study of Homo sapiens with 6 samples.

Results

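The human mitochondrial genome contributed 37 of the 62700 genes in the count table of HEK293T cells, a line derived from human embryonic kidney. They were taken by symbol, as every gene whose name begins with MT-. They comprise 13 protein genes, 2 ribosomal RNA (rRNA) genes and 22 transfer RNA (tRNA) genes. The study measured polyA-selected RNA from 3 editor libraries and 3 GFP libraries. Cells of the editor group received, with Lipofectamine 2000, a SpRY-ABE8e plasmid and guide RNAs against the splice acceptor and splice donor of APP exon 17. SpRY-ABE8e is an adenine base editor, in which a Cas9 variant able to bind beside almost any sequence carries a deaminase that turns A into G in DNA. Cells of the GFP group received a plasmid encoding green fluorescent protein with the same reagent. The cells were otherwise unmodified as far as the labels say. The titles number biological replicates, but nothing says that they were separate cultures, so p-values here reflect the spread among these 6 libraries, possibly technical.

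Mitochondrial DNA is a small circular genome that is copied into long RNAs from both strands by a dedicated polymerase. The tRNA genes lie between most rRNA and protein genes, and excision of the tRNAs frees the other RNAs. Most of the mRNAs are then given short polyA tails, which for some of them also complete the stop codon. The proteins are core subunits of the respiratory chain and of ATP synthase, which also contain many subunits encoded in the nucleus. The rRNAs and tRNAs serve the ribosomes that translate these mRNAs inside the organelle.

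Coordinates and sequences are those of GENCODE release 29 on GRCh38, in which all 37 gene IDs were found. The build the authors used is not given in the sources used here. On chromosome M, 12 protein genes, both rRNAs and 14 tRNAs lie on the plus strand, while MT-ND6 and 8 tRNAs lie on the minus strand. MT-ATP6 and MT-CO3 share 1 base. MT-ATP8 and MT-ATP6 share 46 bases, MT-ND4L and MT-ND4 share 7, and each of these last pairs is carried on 1 RNA. A read in a shared stretch belongs to both genes. The first lines show the stretches of 46 and 7 bases in capitals, between 12 bases on either side (chrM:8515-8584 and chrM:10748-10778, plus strand). The next lines show the last 24 bases of 4 protein genes with the encoded stop letters in capitals: 7 of the 13 protein genes end in a whole stop codon, 5 end in T alone and MT-ND1 ends in TA, the remaining letters coming from the polyA tail. The 4 ends lie at chrM:4239-4262, chrM:8246-8269 and chrM:12114-12137 on the plus strand and chrM:14149-14172 on the minus strand. MT-CO1 ends in AGA and MT-ND6 in AGG.
MT-ATP8 and MT-ATP6 overlap: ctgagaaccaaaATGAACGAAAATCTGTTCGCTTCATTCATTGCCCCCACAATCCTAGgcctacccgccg
MT-ND4L and MT-ND4 overlap: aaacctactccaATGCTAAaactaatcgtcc
MT-ND1 end: ctccagcattccccctcaaaccTA
MT-CO2 end: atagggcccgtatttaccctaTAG
MT-ND4 end: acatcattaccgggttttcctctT
MT-ND6 end: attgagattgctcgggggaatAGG

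The editor libraries held 110519197 to 152625595 counts and the GFP libraries 124681733 to 128988337. Editor libraries 2 and 3 lay closest together, with 3.40 as chi-square over degrees of freedom across genes, while the remaining pairs of 1 group had 34.7 to 195.9. Editor library 1 was nearer to GFP library 3 (42.7) than to any editor library. GFP library 1 stood apart in MALAT1, a nuclear non-coding RNA, with 1388 CPM against 673 to 880.1 CPM in the other 5 libraries (CPM being counts per 1000000, scaled with TMM factors). KRT18 and KRT8, keratins of simple epithelia, were detected in every library, and the summed level of 5 epithelial markers was 73.3 to 83.9 CPM in editor and 68.7 to 83.03 CPM in GFP libraries. The 5 blood markers summed to 0.201 to 0.263 CPM in editor and 0.168 to 0.239 CPM in GFP libraries, with HBB and CD3E at 0 to 2 reads per library. The 5 muscle markers summed to 0.975 to 1.40 CPM in editor and 0.979 to 1.25 CPM in GFP libraries, with MYH7 at 0 to 2 reads. The summed level of 5 fibroblast markers did not overlap between groups, at 40.2 to 43.0 CPM in editor and 33.7 to 36.3 CPM in GFP libraries, with COL1A2 at 0 to 2 reads. The summed level of 5 neuronal filament and kidney development markers was 407 to 430.1 CPM in editor and 423 to 471 CPM in GFP libraries. In 3 of the 4 fibroblast markers tested all editor libraries lay above all GFP libraries, against 8.63% of all genes tested. The same held for 2 of the 5 epithelial and 1 of the 5 neuronal filament and kidney development markers. It held for 0 of the blood and muscle markers tested. Whether any of these differences between cells or libraries takes part in the results below was not tested.

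The 37 genes together took 4.62%, 6.39% and 6.32% of all counts in editor libraries, against 3.66%, 4.49% and 3.42% in GFP libraries. The lowest editor library lay just above the highest GFP library. The difference of the means was 1.92 percentage points (exact permutation test, two-sided, p = 0.1, the smallest that 3 against 3 can give). With editor libraries 2 and 3 left out it was 0.756 points. In these bulk RNA samples, more cells rich in mitochondria, more mitochondrial DNA per cell and more RNA per genome cannot be told apart. Nearly all of the counts came from mRNA and rRNA. The mRNAs took 3.04%, 4.52% and 4.44% in editor libraries, against 2.36%, 3.04% and 2.24% in GFP libraries. The rRNAs took 1.57%, 1.87% and 1.88% in editor libraries, against 1.30%, 1.45% and 1.19% in GFP libraries. The rRNA groups did not overlap, and the mRNA share of editor library 1 was almost equal to that of GFP library 2.

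Per kilobase of gene, the level differed widely between members, also among the 12 mRNAs and 2 rRNAs of the plus strand. MT-RNR2, the large ribosomal RNA, was highest at 8980.4 ± 552 CPM per kb in editor and 6827 ± 815 in GFP libraries, as a level in CPM per length. MT-CO2, a subunit of cytochrome c oxidase, came next in editor libraries, at 7248 ± 1812 CPM per kb in editor and 3949 ± 681 in GFP libraries. In GFP libraries MT-CO3, another subunit of that enzyme, came next at 4155 ± 380.5 CPM per kb, within 1 SD of MT-CO2. After MT-CO2 the order in editor libraries was MT-CO3, MT-ND4, MT-ATP6 and MT-CO1, whose means of 5519.6 to 4606 CPM per kb lay within 1 SD of their neighbours in that order. MT-ND6, the protein gene on the minus strand, was lowest at 323 ± 36.8 CPM per kb in editor and 226 ± 38.3 in GFP libraries. The next lowest, MT-ND1, stood at 1482 ± 96.2 CPM per kb in editor and 989.8 ± 123 in GFP libraries. MT-ND6 was thus below every other protein gene in all 6 libraries. MT-ND5, at 2258 ± 60.3 CPM per kb in editor and 1455 ± 499 in GFP libraries, varied more between GFP than between editor libraries. Tail lengths were not measured, so the part of polyA selection in the order of these levels was not tested.

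**Figure D1:**
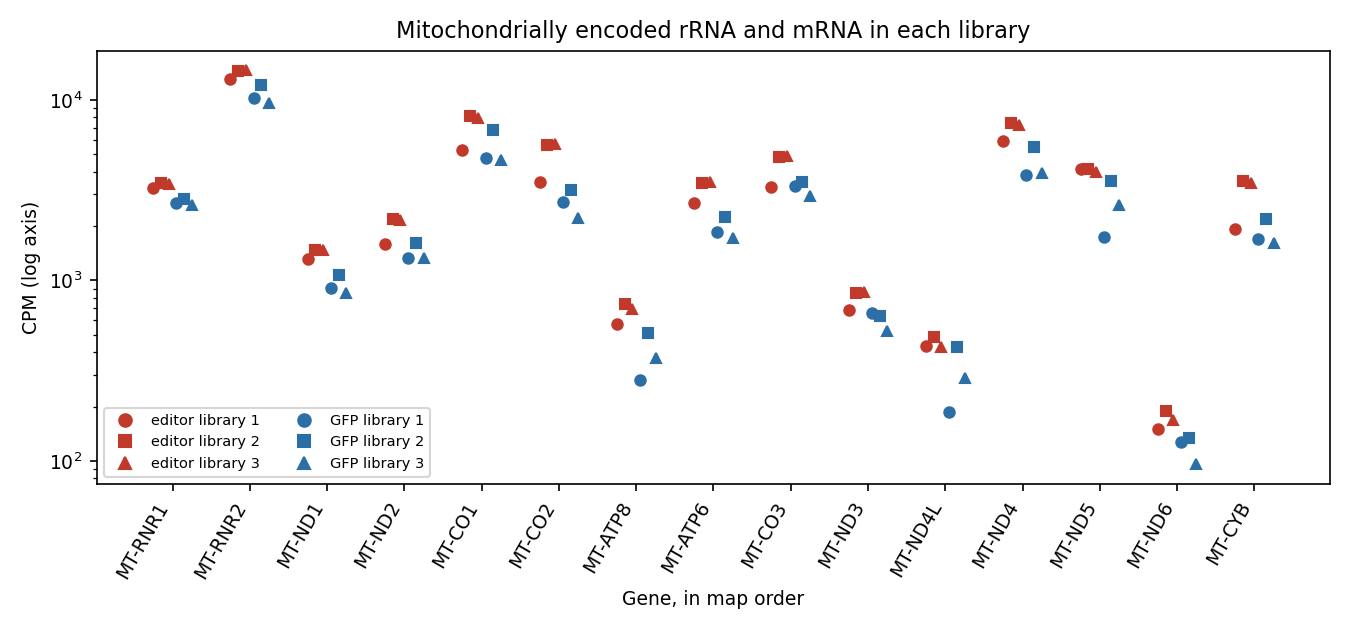
Level in CPM (log axis) of the 2 rRNAs and 13 protein genes in map order, with red symbols for the 3 editor libraries and blue for the 3 GFP libraries. The GFP symbols lie below the editor symbols for 11 of the 15 genes, against 8.63% of all genes tested, and MT-ND6 is the lowest of all.

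The comparison of editor with GFP asked whether transfection with the base editor altered RNA levels, and it was run with edgeR's quasi-likelihood test over all 20511 genes that passed a low-count filter. All 13 protein genes and both rRNAs passed it. Of these 13 protein genes 0 were called higher at an adjusted p under 0.05, where 0.0244% of all genes tested were, and 0 were called lower. At an unadjusted p under 0.05, 12 of 13 were higher, against 6.1% of all genes tested, and 0 were lower, against 2.57%. DESeq2 called 3 of the 13 (MT-ND1, MT-CO2 and MT-ATP6), where it called 0.229% of all genes higher, and limma-voom called 0. Without editor library 1, 3 were called (MT-CO2, MT-ATP6 and MT-CYB), against 0.748% of all genes, and without the low-count filter 4 (MT-CO2, MT-ATP8, MT-ATP6 and MT-CYB), against 0.401%. The log2 fold change was above 0 for all 13, against 54.3% of all genes, and ran from 0.39 to 0.88 with a median of 0.58, where the median of all genes was 0.025. In 9 of the 13 the 3 editor libraries all lay above the 3 GFP libraries, as 8.63% of all genes did, and in 0 they all lay below, as 6.12% of all genes did. The other 4 (MT-ND2, MT-CO1, MT-CO3 and MT-CYB) overlapped, and in each of them editor library 1 lay below GFP library 2. Editor library 1 was the lowest editor library for 11 of the 13, and the median was 0.38 when editor libraries 2 and 3 were left out. Without these 2 libraries the log2 fold change was 0.38 for MT-CO2, 0.45 for MT-ATP6, 0.42 for MT-ND4, 0.33 for MT-ND6, 0.18 for MT-ND3, 0.16 for MT-ND2, 0.077 for MT-CYB and 0.0022 for MT-CO3, with the lone editor library assumed to vary like the GFP libraries.

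**Figure D2:**
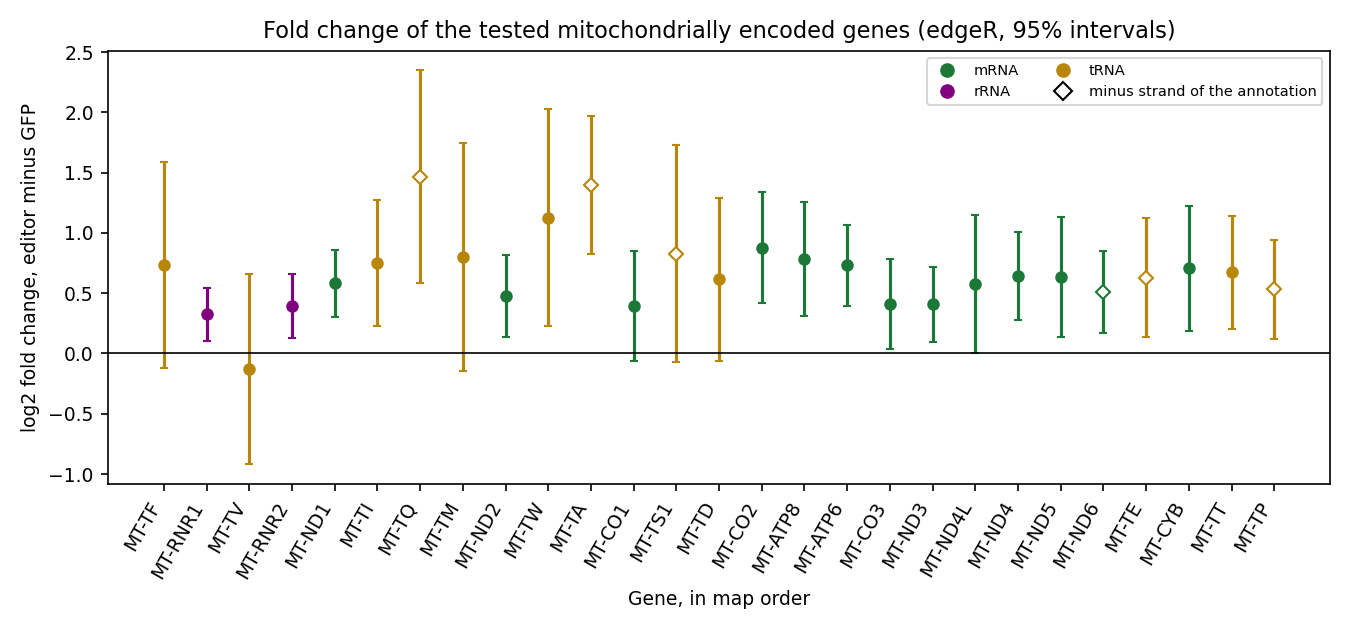
Log2 fold change (editor minus GFP) with 95% interval from edgeR for the 27 mitochondrially encoded genes tested, in map order, with colour for mRNA, rRNA and tRNA and open diamonds for genes on the minus strand. All but MT-TV lie above 0, and MT-TM and MT-TV rest on 65 and 71 reads.

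Complex I, NADH dehydrogenase, is where electrons from NADH enter the chain, and 7 of its subunits are encoded in mitochondrial DNA. Of these 0 passed the adjusted threshold, and 7 of 7 were higher at an unadjusted p under 0.05, against 6.1% of all genes tested. MT-ND1 had 1311, 1468 and 1472 CPM in editor libraries, against 910.1, 1078 and 851 CPM in GFP libraries. All editor libraries lay above all GFP libraries, with a log2 fold change of 0.58 (SE 0.12, edgeR adjusted p = 0.400). MT-ND4, a membrane subunit of the proton-pumping arm, had 5949, 7465 and 7291 CPM in editor libraries, against 3856, 5460.4 and 3958 CPM in GFP libraries. The lowest editor library lay above the highest GFP library, with a log2 fold change of 0.64 (SE 0.16, edgeR adjusted p = 0.458). MT-ND5, the other large membrane subunit, had 4148, 4159.6 and 3965 CPM in editor libraries, against 1746, 3556 and 2609 CPM in GFP libraries. The editor libraries were close together while GFP library 1 was lower than any other library, with a log2 fold change of 0.63 (SE 0.22, edgeR adjusted p = 0.524). Without GFP library 1 the log2 fold change was 0.39. MT-ND2, also a membrane subunit, had 1598, 2199 and 2162 CPM in editor libraries, against 1336, 1612 and 1331 CPM in GFP libraries. Editor library 1 lay below GFP library 2, with a log2 fold change of 0.48 (SE 0.15, edgeR adjusted p = 0.504). MT-ND3, a subunit near the ubiquinone site, had 689.9, 852 and 864 CPM in editor libraries, against 656, 636 and 522 CPM in GFP libraries. The groups did not overlap, with a log2 fold change of 0.41 (SE 0.14, edgeR adjusted p = 0.512). MT-ND4L, a small membrane subunit, had 435, 484 and 428 CPM in editor libraries, against 187, 427 and 288 CPM in GFP libraries, and the editor library 3 value lay close to that of GFP library 2, with a log2 fold change of 0.58 (SE 0.25, edgeR adjusted p = 0.572). The log2 fold change was 0.31 without GFP library 1 and 0.92 without GFP library 2.

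MT-ND6, the complex I subunit encoded on the opposite strand from the others, had 150.3, 189 and 169 CPM in editor libraries, against 127, 133 and 95.9 CPM in GFP libraries. All editor libraries lay above all GFP libraries, with a log2 fold change of 0.51 (SE 0.15, edgeR adjusted p = 0.497). Its summed counts were 0.479%, 0.439% and 0.399% of those of the other 12 mRNAs in editor and 0.545%, 0.428% and 0.416% in GFP libraries. The 2 sets of ratios overlapped, and the difference of the log2 ratio was -0.069 (exact permutation test, two-sided, p = 0.7). It was 0.054 without GFP library 1 and 0.060 without editor libraries 2 and 3. The strand setting of the counting is not given in the sources used here, so reads from MT-ND6 and from RNA of the other strand may not have been told apart.

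Complex III passes electrons from ubiquinol to cytochrome c, and MT-CYB, its cytochrome b, is the only subunit encoded in mitochondrial DNA. MT-CYB had 1937, 3543 and 3468 CPM in editor libraries, against 1693, 2181 and 1606 CPM in GFP libraries. Editor library 1 lay between GFP libraries 1 and 2, and editor libraries 2 and 3 lay far above them, with a log2 fold change of 0.71 (SE 0.23, edgeR adjusted p = 0.512). Complex IV, cytochrome c oxidase, reduces oxygen, and its 3 mitochondrially encoded subunits form the catalytic core. MT-CO2, which takes electrons from cytochrome c, had 3527, 5654 and 5691 CPM in editor libraries, against 2723, 3155 and 2225 CPM in GFP libraries. All editor libraries lay above all GFP libraries, with a log2 fold change of 0.88 (SE 0.20, edgeR adjusted p = 0.451), the largest fold change among the protein genes. MT-CO1, which holds the site where oxygen is reduced, had 5269, 8135 and 7901 CPM in editor libraries, against 4741, 6799 and 4664 CPM in GFP libraries. The groups overlapped, the log2 fold change was 0.39 (SE 0.20) and the unadjusted p was 0.0836, and the log2 fold change was -0.044 with editor libraries 2 and 3 left out. MT-CO3 had 3282, 4816 and 4884 CPM in editor libraries, against 3355, 3495 and 2923 CPM in GFP libraries. Here editor library 1 was below GFP libraries 1 and 2, with a log2 fold change of 0.41 (SE 0.16, edgeR adjusted p = 0.546).

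Complex V, ATP synthase, makes ATP from the proton gradient, and MT-ATP6 and MT-ATP8 encode parts of its membrane sector. MT-ATP6, a part of the proton channel, had 2674, 3480.2 and 3509 CPM in editor libraries, against 1863, 2242 and 1718 CPM in GFP libraries. The groups did not overlap, with a log2 fold change of 0.73 (SE 0.15, edgeR adjusted p = 0.400). MT-ATP8, which lies upstream on the same RNA, had 577, 741 and 694 CPM in editor libraries, against 281, 513 and 372 CPM in GFP libraries. Again all editor libraries lay above all GFP libraries, with a log2 fold change of 0.79 (SE 0.21, edgeR adjusted p = 0.465). The MT-ATP8 count was 21.6%, 21.3% and 19.8% of the MT-ATP6 count in editor and 15.1%, 22.9% and 21.6% in GFP libraries. GFP library 1 was low and the other 5 libraries were close. The same library was low in the corresponding pair MT-ND4L over MT-ND4, with 7.31%, 6.48% and 5.87% in editor and 4.84%, 7.82% and 7.28% in GFP libraries. How the counting treats a read that overlaps 2 genes is not given in the sources used here, so the shared bases shown above could be lost from either member, and they are 22.2% of the length of MT-ATP8, 6.75% of MT-ATP6 and 2.36% of MT-ND4L.

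The 2 rRNAs form the core of the mitochondrial ribosome. MT-RNR1, the small-subunit RNA, had 3259, 3484 and 3421 CPM in editor libraries, against 2691, 2809.6 and 2607 CPM in GFP libraries. MT-RNR2, the large-subunit RNA, had 13010.3, 14419 and 14572 CPM in editor libraries, against 10196, 12078 and 9658 CPM in GFP libraries. In both, all editor libraries lay above all GFP libraries, as they did for 8.63% of all genes tested. The log2 fold changes were 0.33 (SE 0.10) and 0.40 (SE 0.12), each with an edgeR adjusted p of 0.499. Both were smaller than the median log2 fold change of the mRNAs, 0.58. The rRNA counts were 51.6%, 41.5% and 42.3% of the mRNA counts in editor and 54.9%, 47.6% and 52.9% in GFP libraries. Editor library 1 lay between GFP libraries 2 and 3, and the difference of the log2 ratio was -0.20 (exact permutation test, two-sided, p = 0.2). Without editor libraries 2 and 3 the difference was -0.00396.

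The tRNAs carry amino acids to the mitochondrial ribosome and are far shorter than the fragments this library type is made for. Few reads came from them. Summed over all 22 they had 985, 1766 and 2138 counts in editor and 931, 1087 and 745 in GFP libraries. In 5 (MT-TN, MT-TK, MT-TG, MT-TR and MT-TL2) no read was counted in any of the 6 libraries, where 3 counts, the upper limit that a count of 0 allows, correspond to 0.0188 to 0.0281 CPM per library. MT-TH had 1 read in all. Of those below the filter, MT-TL1 had 52 reads in all, MT-TY 43, MT-TS2 17 and MT-TC 15. MT-TG, MT-TR and MT-TL2 abut a gene on either side with no base between, as do MT-TH, MT-TS2 and MT-TV, the last with 71 reads. MT-TN and MT-TK, also without reads, lie 1 to 31 bases from their neighbours. MT-TT, with 1692 reads, abuts MT-CYB on 1 side and lies 2 bases from MT-TP on the other. How the counting treats a read that overlaps 2 genes is not given, so such reads may be missing from tRNAs beside other genes. The limit for a count of 0 covers counting error only, and is no limit on the RNA present. More than 100 reads were counted for 10 tRNAs. The filter kept 12 of the 22, with MT-TM and MT-TV near its limit: MT-TM reached it in 3 editor and 1 GFP libraries, MT-TV in 3 and 2. Counts over the 12 therefore describe only these genes. The tRNAs with most counts were MT-TP (proline), MT-TT (threonine) and MT-TI (isoleucine). MT-TA (alanine) had the smallest p of the tRNAs and MT-TQ (glutamine) the largest log2 fold change, and the sequences of these 2 and of MT-TP and MT-TT are shown on the strand of each gene, at chrM:15956-16023 (minus), chrM:15888-15953 (plus), chrM:5587-5655 (minus) and chrM:4329-4400 (minus).
MT-TP: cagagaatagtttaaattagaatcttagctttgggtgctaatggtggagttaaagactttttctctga
MT-TT: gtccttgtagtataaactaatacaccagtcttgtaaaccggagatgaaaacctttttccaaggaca
MT-TA: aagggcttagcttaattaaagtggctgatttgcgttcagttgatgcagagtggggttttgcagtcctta
MT-TQ: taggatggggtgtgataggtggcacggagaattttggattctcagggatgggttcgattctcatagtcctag

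MT-TA had 0.347, 0.523 and 0.477 CPM in editor libraries, against 0.154, 0.192 and 0.166 CPM in GFP libraries. All editor libraries lay above all GFP libraries, and the log2 fold change of 1.40 (SE 0.25, edgeR adjusted p = 0.373) rested on 245 reads in all. MT-TQ had 0.319, 0.854 and 0.885 CPM in editor libraries, against 0.246, 0.313 and 0.191 CPM in GFP libraries. Editor library 1 lay just above GFP library 2 while editor libraries 2 and 3 were far above, with a log2 fold change of 1.47 (SE 0.39, edgeR adjusted p = 0.465). MT-TA and MT-TQ lie on the minus strand, as do MT-TP, MT-TE and MT-TS1, and MT-TQ shares bases with MT-TI on the plus strand. The strand setting of the counting is not given, so reads from these tRNAs and from RNA of the other strand may not have been told apart. MT-TP had 2.77, 3.12 and 3.36 CPM in editor libraries, against 2.24, 2.47 and 1.68 CPM in GFP libraries. MT-TT had 1.997, 2.88 and 3.03 CPM in editor libraries, against 1.63, 1.94 and 1.39 CPM in GFP libraries. In both the editor libraries lay above the GFP libraries, with log2 fold changes of 0.53 and 0.67. MT-TI had 1.38, 2.28 and 2.25 CPM in editor libraries, against 1.26, 1.28 and 0.971 CPM in GFP libraries. MT-TE (glutamic acid) had 0.806, 1.08 and 1.02 CPM in editor libraries, against 0.523, 0.770 and 0.589 CPM in GFP libraries. In both the groups did not overlap, with log2 fold changes of 0.75 and 0.63. MT-TW (tryptophan) had 0.281, 0.792 and 0.697 CPM in editor libraries, against 0.192, 0.369 and 0.257 CPM in GFP libraries, with editor library 1 below GFP library 2 and a log2 fold change of 1.13. MT-TF (phenylalanine), MT-TS1 (serine) and MT-TD (aspartic acid) had log2 fold changes of 0.73, 0.83 and 0.61, with groups that overlapped and unadjusted p of 0.0663 to 0.0847. Without GFP library 2 that of MT-TF was 1.16 and without editor library 2 it was 0.46, while that of MT-TS1 was 0.44 without GFP library 1 and 1.30 without GFP library 2. Without editor libraries 2 and 3 the log2 fold change was 0.34 for MT-TQ, 0.22 for MT-TI, 0.26 for MT-TT, 0.35 for MT-TE, 0.038 for MT-TW, 0.027 for MT-TF and -0.075 for MT-TD. MT-TM (methionine) had 14 reads in each editor library and 4 to 11 in GFP libraries, and MT-TV (valine) had 9 to 16 reads per editor and 9 to 14 per GFP library. Of the 12 tRNAs tested, 0 were called, against 0.0244% of all genes higher. At an unadjusted p under 0.05, 7 of the 12 were higher, against 6.1% of all genes, and in 6 all editor libraries lay above all GFP libraries, against 8.63%. MT-TM and MT-TV are in neither count. Over all 22, the summed counts were 0.0293%, 0.0314% and 0.0316% of the mRNA counts in editor and 0.0305%, 0.0279% and 0.0267% in GFP libraries. The difference of the log2 ratio was 0.12 (exact permutation test, two-sided, p = 0.2), and the groups overlapped. Without editor libraries 2 and 3 the difference was 0.048.

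Whether the complexes changed relative to each other was tested with log2 ratios of summed counts within a library, which do not depend on the scaling of libraries. With the ratios for rRNA, tRNA and MT-ND6, 7 ratios were compared and adjusted together. The 2 complex V genes were 11.5%, 10.8% and 10.98% of the other mRNAs in editor and 10.1%, 9.66% and 9.92% in GFP libraries. This was the only ratio of the 7 whose groups did not overlap, with a difference of 0.17 (exact permutation test, two-sided, p = 0.1, adjusted p = 0.467). For complex I the difference was 0.043 and for complex III 0.087, with exact permutation p of 0.8 and 0.5. For complex IV it was -0.13 (exact permutation p = 0.6). The complex I difference was -0.087 without editor library 1 and -0.036 without GFP library 1, and that of complex III was -0.21 without editor libraries 2 and 3. After adjustment p was 0.467 for the rRNA and tRNA ratios and 0.8 for those of MT-ND6 and complexes I, III and IV. Editor library 1 had more complex I and less complex IV relative to the other mRNAs than any other library, with complex I at 82.7% of the rest against 60.2% to 71.5% in the other 5. By gene, the share of mRNA counts taken by MT-ATP6 did not overlap between groups and was higher in editor, with 8.48%, 8.06% and 8.26% in editor libraries, against 7.94%, 7.17% and 7.42% in GFP libraries. Those of MT-ND2 and MT-CO1 did not overlap and were lower in editor, MT-CO1 with 16.7%, 18.8% and 18.6% in editor libraries, against 20.2%, 21.7% and 20.1% in GFP libraries. Lower applies to the share only, as their log2 fold changes were 0.48 and 0.39. The shares of the other 10 overlapped. Shares within a library depend on each other, and their differences by gene were not tested. MT-CO2 relative to MT-CO3, 2 genes of the same complex chosen after their values were seen, was 107%, 117% and 117% in editor and 81.2%, 90.3% and 76.1% in GFP libraries.

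**Figure D3:**
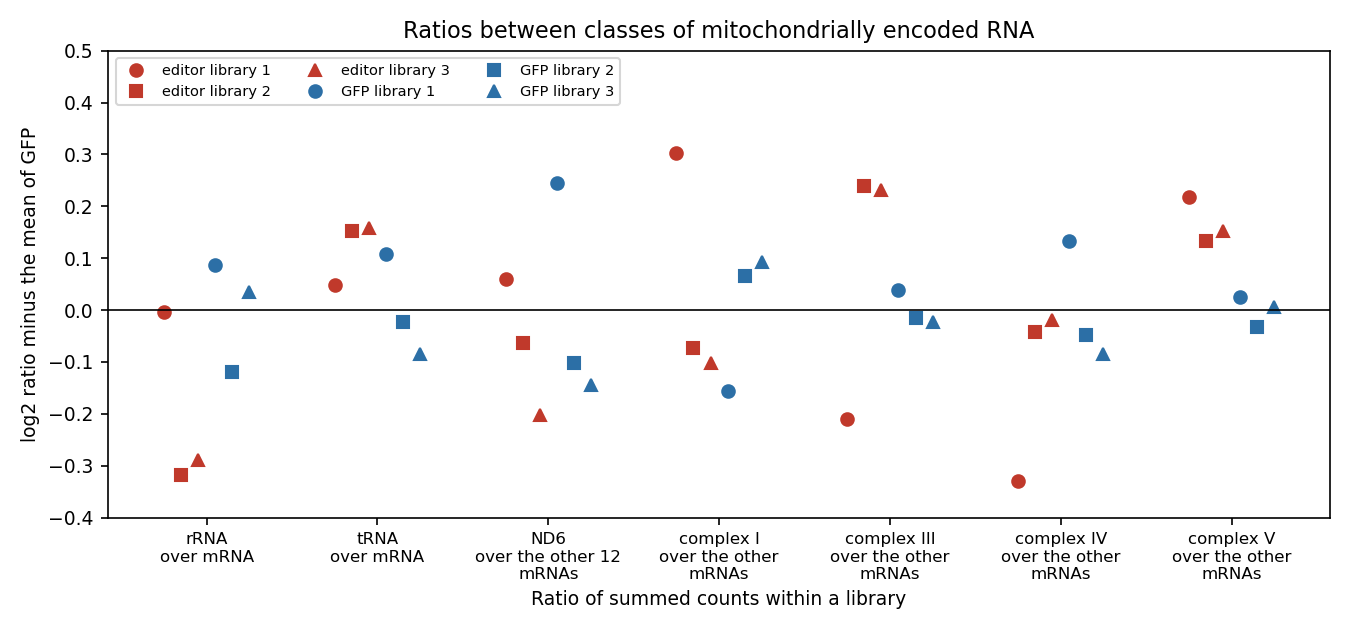
Log2 ratio of summed counts, minus the mean of the GFP libraries, for 7 ratios between classes of mitochondrially encoded RNA, with 1 symbol per library (red editor, blue GFP). Only the complex V ratio separates the groups, and editor library 1 departs from editor libraries 2 and 3 in most ratios.

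Nuclear subunits of the same complexes were read beside the mitochondrially encoded ones. Of the 35 nuclear complex I subunits tested 0 were called, where 0.0244% of all genes tested were called higher and 0 lower. Of these 35, 26 had a log2 fold change below 0 and the median was -0.099. The lists of complexes III (9), IV (11) and V (18) had medians of -0.087, -0.12 and -0.072 and 0 calls, with 8, 9 and 17 members below 0, while 54.3% of all genes were above 0. Without GFP library 1 the medians were 0.027, -0.0058, 0.0093 and 0.049 for complexes I, III, IV and V. All 4 subunits of complex II, which has no mitochondrially encoded subunit, were below 0, with a median of -0.15 and 0 calls. That median was 0.058 without editor libraries 2 and 3. NDUFA13 of complex I, at 0.295 to 0.369 CPM in editor and 0.216 to 0.241 CPM in GFP libraries, was the nuclear subunit with the highest log2 fold change, 0.51. It rested on only 26 to 48 reads per library. CYC1, cytochrome c1 of complex III, had the lowest, -0.35, with 134, 109 and 107 CPM in editor libraries, against 182, 127 and 139 CPM in GFP libraries. GFP library 1 was highest for CYC1, as it was for the summed level of nuclear subunits of complexes I, III, IV and V. Ratios to the nuclear subunits were added after the data were examined. They use the same mitochondrial counts as the comparison above, so they are not a separate test of it. The summed counts of the mitochondrially encoded subunits over those of the nuclear subunits of complex I were 6.31, 7.91 and 7.69 in editor and 3.33, 6.21 and 4.34 in GFP libraries. For complex V the ratio was 0.953, 1.40 and 1.40 in editor and 0.555, 0.899 and 0.635 in GFP libraries. Neither pair of groups overlapped, with log2 differences of 0.70 and 0.85 (exact permutation test, two-sided, p = 0.1, adjusted over 4 complexes p = 0.2). For complex III it was 1.31, 2.81 and 2.74 in editor and 0.984, 1.62 and 1.11 in GFP libraries, and for complex IV 6.31, 11.3 and 11.3 in editor and 4.84, 8.28 and 5.52 in GFP libraries. In these 2 editor library 1 lay below GFP library 2, with log2 differences of 0.84 and 0.62 (exact permutation p = 0.2). With editor libraries 2 and 3 left out the 4 differences were 0.50, 0.12, 0.060 and 0.48 for complexes I, III, IV and V.

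**Figure D4:**
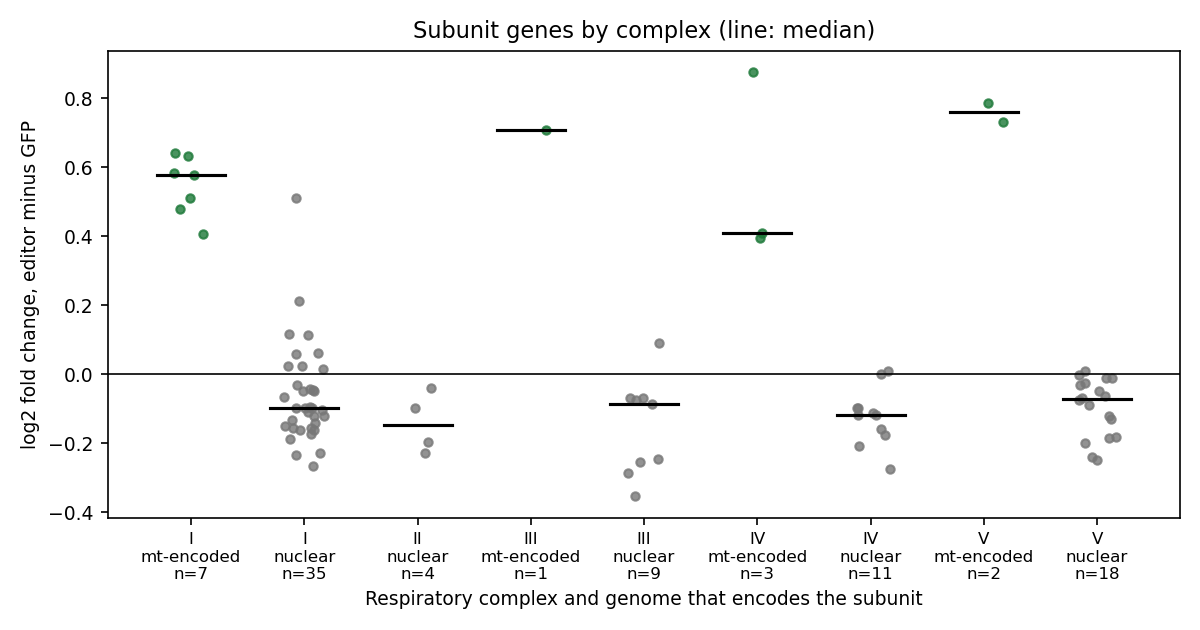
Log2 fold change (editor minus GFP) of every tested subunit gene of complexes I to V, with green points for mitochondrially encoded and grey points for nuclear subunits and a line at each median. The green medians lie at 0.41 to 0.76 and the grey medians at -0.15 to -0.072, where those of complexes I, IV and V are 0.027, 0.0093 and 0.049 without GFP library 1.

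Nuclear genes that maintain and express mitochondrial DNA were read from 5 lists. Of their members 0 were called, where 0.0244% of all genes tested were called higher and 0 lower. Of 10 replication and packaging genes, 8 were above 0, against 54.3% of all genes, with a median of 0.093. TWNK, the helicase of mitochondrial DNA, had 52.4, 48.5 and 46.6 CPM in editor libraries, against 40.8, 41.3 and 40.1 CPM in GFP libraries. Its groups did not overlap, with a log2 fold change of 0.27 (SE 0.10, edgeR adjusted p = 0.528). POLRMT, the mitochondrial RNA polymerase, had 33.01, 35.2 and 34.4 CPM in editor libraries, against 47.9, 39.05 and 37.6 CPM in GFP libraries. All editor libraries lay below all GFP libraries, with a log2 fold change of -0.28 (SE 0.12, edgeR adjusted p = 0.569). The median of the 8 transcription genes was -0.035. Among 21 genes of RNA processing, polyadenylation and decay the median was 0.025, and TRNT1, which adds the CCA end to tRNAs, had the smallest p with a log2 fold change of 0.23 (SE 0.11, edgeR adjusted p = 0.599). Among 15 genes of rRNA modification and ribosome assembly the median was -0.043, and RPUSD4, a pseudouridine synthase, had 42.9, 44.7 and 44.8 CPM in editor libraries, against 57.9, 50.5 and 51.2 CPM in GFP libraries. The groups did not overlap, with a log2 fold change of -0.27 (SE 0.10, edgeR adjusted p = 0.529). Among 13 translation factors the median was -0.015, and MTRF1, a release factor, had a log2 fold change of 0.31 (SE 0.13, edgeR adjusted p = 0.559). Of 14 RNAs that stay in the nucleus or lack a polyA tail, 6 were tested and 0 called, with a median of -0.078, which was 0.081 without GFP library 1. The most abundant were MALAT1, NEAT1, RN7SL1 and RMRP, with log2 fold changes of -0.26, -0.078, -0.0098 and -0.49.

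The nuclear genome holds copies of mitochondrial DNA, and reads from near-identical copies cannot be assigned with confidence. The table listed 404 such copies, of which 12 passed the filter. MTATP6P1, on chromosome 1 (chr1:633696-634376, plus strand), matched MT-ATP6 over all 681 bases with 10 differences, an identity of 98.5%. A stretch of 60 bases shows how few letters part the copy from the gene, with differing letters in capitals (MT-ATP6 at chrM:8642-8701, plus strand).
MTATP6P1 stretch: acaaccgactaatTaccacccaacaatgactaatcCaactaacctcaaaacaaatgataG
MT-ATP6 stretch: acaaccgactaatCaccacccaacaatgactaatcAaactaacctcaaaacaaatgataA
MTATP6P1 counts were 14.8%, 14.9% and 14.9% of those of MT-ATP6 in editor and 15.3%, 14.8% and 15.1% in GFP libraries. The percentage was nearly the same in all 6 libraries, and the log2 fold change of the copy was 0.71, against 0.73 for the gene. MTND2P28 had 6.98%, 6.78% and 6.62% of the MT-ND2 counts in editor and 5.67%, 7.37% and 6.97% in GFP libraries. MTCO1P12 had 0.286% to 0.301% of the MT-CO1 counts, and the other 9 tested copies stood below 0.05% of theirs. Of the 12 copies tested 0 were called, where 0.0244% of all genes tested were called higher. At an unadjusted p under 0.05, 9 were higher, against 6.1% of all genes. In 7 all editor libraries lay above all GFP libraries, against 8.63%. MTATP8P2, with 25 to 41 reads per editor and 8 to 17 per GFP library, is in both counts. It lay near the limit of the filter, with GFP library 3 below it. MTND4LP30, the copy with a log2 fold change below 0, had 7 to 14 reads per editor and 11 to 17 per GFP library. It also lay near the limit, with editor library 1 below it. Above 0 were 11 of the 12, against 54.3% of all genes, and the median log2 fold change was 0.69. That median was 0.39 without editor libraries 2 and 3. How the authors' counting treated reads with several matches is not given in the sources used here. Such reads may be missing from both gene and copy, so the counts of a copy do not bound what its gene lost. The levels of MT-ATP6 and MT-ND2 are therefore uncertain by an unknown amount. So are those of MT-CO1, MT-CO2, MT-CO3 and MT-ND1. Their copies MTCO1P12, MTCO2P12, MTCO3P12 and MTND1P23 had identities of 98.1% to 98.7% over the aligned bases.

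**Figure D5:**
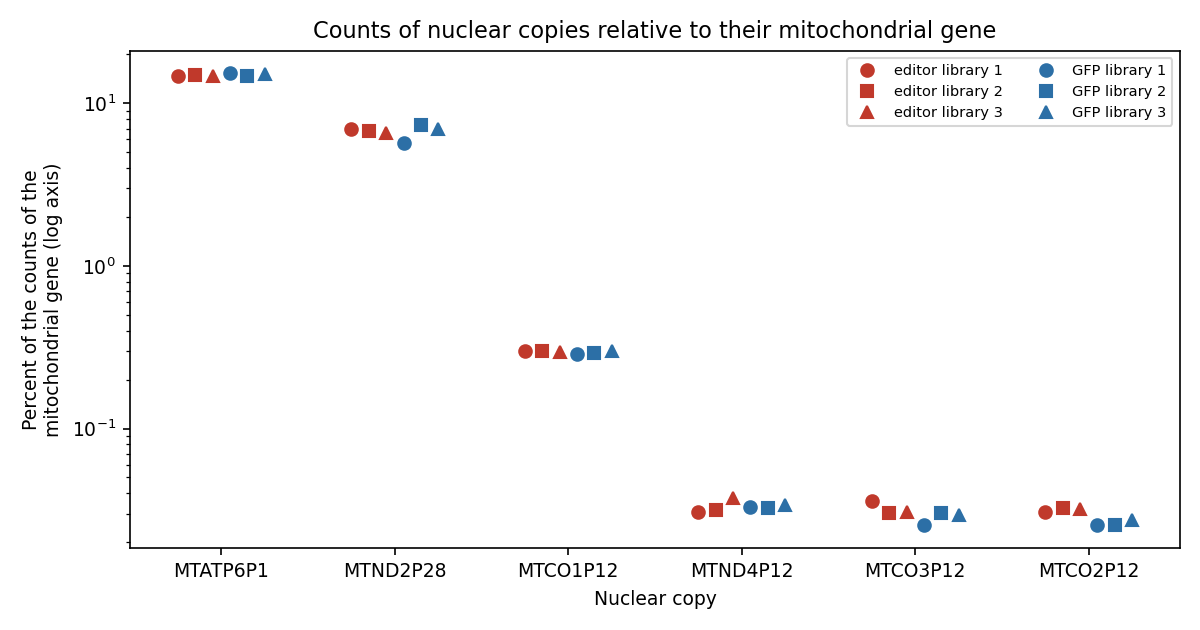
Counts of 6 nuclear copies as percent of the counts of their mitochondrial gene (log axis), with 1 symbol per library (red editor, blue GFP). MTATP6P1 stays between 14.8% and 15.3% in all 6 libraries, and MTCO1P12 and the copies to its right stay at or below 0.301%.

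In the authors' deposited table, which gives 15273 genes, 19 of the 37 mitochondrially encoded genes appear. All 19 have a log2 fold change above 0 in the authors' deposited table, where the share of all genes above 0 was not computed. The authors compared the same editor and GFP groups, so their values are not an independent measurement. MT-CO2 has 0.87 there with an adjusted p of 0.505, and MT-ATP6 has 0.74 with an adjusted p of 0.479. None of the 19 is among the 3 genes of the authors' deposited table with an adjusted p under 0.05.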

How the data were processed

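HEK293T RNA (3 editor and 3 GFP libraries) was prepared by RNeasy extraction, polyA selection and a TruSeq mRNA kit, and read on a NovaSeq 6000, per the labels' protocols. HISAT2, featureCounts and limma are named, without versions, in the submitters' processing notes. The authors deposited raw counts per gene, not normalized, and a comparison table with log2 fold changes and p-values. Mitochondrially encoded genes and gene lists were chosen with earlier results of these data known. Every MT- gene is named, and of other lists those past the threshold and up to 3 with the smallest p, or up to 4 with the highest mean. The ratios to nuclear subunits were added after the data were examined.

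Counts were scaled with TMM, filtered with filterByExpr (10 reads in a library of median size) and tested with edgeR 4.0.16 in R 4.3.3, quasi-likelihood test, with Benjamini-Hochberg adjustment over 20511 genes. CPM are TMM-scaled counts per 1000000, and SD is over 3 libraries. Limits for 0 counts cover counting error only. Ratios were compared with exact permutation tests (scipy 1.17.1). Copies were aligned with Biopython 1.88. The fits were checked on simulated counts. DESeq2 1.42.0, limma-voom 3.58.1, other scalings and filters, the replicate block and leaving out each library were alternatives.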

Additional observations from a re-analysis of the deposited data

How the results depend on the processing

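Under the alternatives 426 values of single mitochondrially encoded genes were recomputed: 408 kept their direction and side of the threshold, 16 passed it and 2 turned. The genes called higher, main count 0, became 7 without the low-count filter (4 of them protein genes), 4 with DESeq2 (3), and 0 to 5 (0 to 3) when leaving out a library each, the 5 (MT-TQ, MT-TA, MT-CO2, MT-ATP6 and MT-CYB) without editor library 1. Over all genes, 5 higher calls became 178 without the filter (129 lower), 47 with DESeq2 (32 lower), 3 with limma-voom, 1 with the replicate block, 13 with editor libraries 2 and 3 left out (the lone editor library assumed to vary like the GFP libraries) and 1 to 159 (0 to 54 lower) leaving out a library each. The share called was 0.401% without the filter and 0.748% without editor library 1. The causes were not tested. Same-numbered libraries of the groups did not deviate together (r of -0.048, 0.17 and -0.24), so the replicate block shares only a number. Leaving out editor libraries 2 and 3, chosen after seeing the data, turned MT-CO1 to -0.044 and MT-TD to -0.075. It moved the share of counts to 0.756 points and the log2 ratios to -0.00396 for rRNA, 0.048 for tRNA, 0.060 for MT-ND6 (turned), 0.30 for complex I, -0.21 for complex III (turned), -0.33 for complex IV and 0.22 for complex V, and those to nuclear subunits to 0.12, 0.060 and 0.48 for complexes III, IV and V. Leaving out a library each gave 1.61 to 2.495 points for the share, 0.53 to 0.82 for the protein gene median, -0.30 to -0.15 for rRNA, 0.076 to 0.17 for tRNA, -0.14 to 0.054 for MT-ND6 (turned without GFP library 1), -0.087 to 0.11 for complex I (turned without editor library 1 or GFP library 1), 0.010 to 0.24 for III, -0.19 to -0.031 for IV and 0.14 to 0.19 for V. For the ratios to nuclear subunits it gave 0.49 to 0.94 for complex I, 0.65 to 1.20 for III, 0.46 to 0.90 for IV and 0.70 to 1.05 for V. A mean of log2 CPM turned the complex I ratio to -0.073. With 3 libraries a group, exact tests cannot fall below p = 0.1. Of the nuclear subunit lists, medians of complexes I, IV and V turned to 0.027, 0.0093 and 0.049 without GFP library 1.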
